A study of Mus musculus with 14 samples.

Results

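The acute phase proteins described here are the serum amyloids Saa1, Saa2 and Saa3, haptoglobin (Hp), lipocalin 2 (Lcn2), leucine-rich alpha-2-glycoprotein (Lrg1), orosomucoid (Orm1) and ceruloplasmin (Cp). Their probe sets were chosen by an exact match of the platform's gene symbol, which gave 8 genes of 18193 and 16 probe sets of 45101. Of these, 7 genes and 14 probe sets were bright enough to be tested with the 13453 genes that passed the filter on dim signal, and Saa1 was not. The acute phase response is the change in plasma proteins that follows infection or injury. Interleukin-6, through STAT3, and interleukin-1, through NF-kB and C/EBP factors, switch on these genes in the liver, and several of them are also made outside it by macrophages, neutrophils, fat cells or endothelium. The proteins bind iron or copper, heme proteins, lipids or signalling receptors.

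RNA was measured on 14 Affymetrix mouse arrays, 1 for each sample of cells sorted from bone marrow. The osteoblast sort took GFP+ cells without CD45, ter119 or CD31, and gave 3 arrays from mice given G-CSF and 3 from untreated mice. The endothelial sort took CD31+ cells without CD45, ter119 or GFP, and gave 4 arrays from mice given G-CSF and 4 from untreated mice. All mice were C57BL/6J carrying pOBcol2.3-GFP, a GFP reporter under part of the type I collagen promoter, active in the osteoblast lineage, and were 6 to 8 weeks old. The labels give their genotype as wild type. G-CSF, which drives the marrow to make neutrophils, was injected under the skin at 250 ug per kg, and untreated mice received vehicle. Titles state 5 days for G-CSF arrays, whereas the protocol of untreated ones states 7. Nothing in the labels ties replicates to separate animals, and p-values may therefore reflect technical spread alone.

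Within the serum amyloid cluster, Saa3 differs from Saa1 and Saa2 just upstream of its start site, while Saa1 and Saa2 are nearly alike there. RefSeq promoters of GRCm38.p6, 250 bases before to 50 bases from the start of transcription, were found for 6 of the 8 genes and not for Hp and Orm1. In RefSeq the cluster on chromosome 7 runs Saa3, Gm31882, Saa4, Saa-ps, Saa1 and Saa2. The promoters of Saa3 and Saa1 are printed because Saa3 rose while Saa1 stayed dim, that of Lrg1 because its level differed between the sorts, and that of Lcn2, a neutrophil granule gene, for comparison. Capitals mark the C/EBP motif TTNNGNAA in the first 3 and the interleukin-6 response element CTGGGAA in Lrg1.
Saa3, chr7:46715627-46715926, minus strand: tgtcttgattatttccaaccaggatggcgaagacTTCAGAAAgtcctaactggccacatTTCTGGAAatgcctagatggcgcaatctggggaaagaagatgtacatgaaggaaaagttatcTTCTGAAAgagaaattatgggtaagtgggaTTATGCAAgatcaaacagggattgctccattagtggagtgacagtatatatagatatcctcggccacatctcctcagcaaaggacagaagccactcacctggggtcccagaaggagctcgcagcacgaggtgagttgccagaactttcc
Saa1, chr7:46742931-46743230, minus strand: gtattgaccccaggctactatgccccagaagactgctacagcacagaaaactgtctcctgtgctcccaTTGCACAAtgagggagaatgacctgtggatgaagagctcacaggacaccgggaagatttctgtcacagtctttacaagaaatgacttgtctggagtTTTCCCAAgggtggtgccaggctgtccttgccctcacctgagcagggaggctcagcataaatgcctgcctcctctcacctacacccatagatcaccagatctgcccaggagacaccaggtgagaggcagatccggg
Lcn2, chr2:32387690-32387989, minus strand: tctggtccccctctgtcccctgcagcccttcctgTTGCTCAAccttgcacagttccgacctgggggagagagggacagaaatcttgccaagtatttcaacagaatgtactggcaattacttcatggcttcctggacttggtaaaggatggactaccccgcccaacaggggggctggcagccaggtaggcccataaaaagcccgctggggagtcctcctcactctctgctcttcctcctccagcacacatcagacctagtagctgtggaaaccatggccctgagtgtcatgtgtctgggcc
Lrg1, chr17:56121897-56122196, minus strand: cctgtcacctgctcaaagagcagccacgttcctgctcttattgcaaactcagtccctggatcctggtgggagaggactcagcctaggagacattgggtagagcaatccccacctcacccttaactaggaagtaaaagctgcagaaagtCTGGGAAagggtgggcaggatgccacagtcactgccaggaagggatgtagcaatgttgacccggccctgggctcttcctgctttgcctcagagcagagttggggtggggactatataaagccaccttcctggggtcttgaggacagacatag
Both strands were searched for these motifs, for the STAT motif TTCNNNGAA and for the NF-kB consensus. The C/EBP motif stood 4 times in the Saa3 promoter, first at -216 and last at -99 from the start site. It stood 2 times in Saa1, at -182 and -86, and 1 time in Lcn2, at -216. It stood 1 time in Saa2, at -183, and 1 time at each of the start sites that RefSeq gives Cp. The element CTGGGAA stood at -102 in Lrg1. The STAT and NF-kB motifs had no match in these 6 genes' windows. Of 32851 promoters of the same length, 40.7% held the C/EBP motif, 11.1% the interleukin-6 element, 8.3% the STAT motif and 4.51% the NF-kB consensus. A match describes these letters alone. The promoter of Saa1 was 95.3% identical to that of its neighbour Saa2 and 50.9% identical to that of Saa3.

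Endothelial markers checked the sorts. All 15 listed endothelial genes, Cdh5 and Vwf among them, were lower in the osteoblast sort, both under G-CSF and untreated. Over all genes 14.4% and 12.8% were called lower there. Of 10 measured osteoblast genes, 10 were higher in the osteoblast sort under G-CSF and 4 among untreated arrays, Omd and Mmp13 among them. Over all genes 17.5% and 13.6% were called higher there. Some osteoblast genes were bright in the endothelial sort too. Untreated Col1a1 read 32165 to 54712 in endothelial cells, against 33542 to 68385 in osteoblasts. Blood cell genes were present in both sorts. Untreated osteoblast replicate 2 stood apart: the mean of 25 neutrophil genes was 12.25 there on the log2 scale, against 9.63 and 9.44 on the other untreated osteoblast arrays, and that of 12 monocyte and macrophage genes was 9.85, against 7.06 and 6.92. The same array was also high in 9 erythroid genes, at 11.20 against 9.02 and 9.33, and in 9 B lineage genes, at 9.57 against 7.11 and 7.61, and low in the 10 osteoblast genes, at 12.43 against 13.93 and 14.11. Untreated endothelial replicate 1 stood apart by 11 skeletal muscle genes, at 13.45 against 7.76 to 9.39 on the other untreated endothelial arrays. Under G-CSF 4 of the 9 erythroid genes (Ermap, Car1, Klf1 and Gata1) were called lower in the endothelial sort and 0 in the osteoblast sort, where 9 were lower at an unadjusted p under 0.05, and their median log2 change was -2.95 in endothelial cells and -2.38 in osteoblasts. Over all genes 1.14% were called lower under G-CSF in the endothelial sort and 0.0446% in the osteoblast sort. Of the 9 B lineage genes 0 were called in either sort, with a median of -1.90 in endothelial cells and -1.33 in osteoblasts, and with 5 and 1 lower at an unadjusted p under 0.05. All values come from bulk samples, in which fewer cells of a type and less RNA per cell cannot be told apart. Of 9 hepatocyte genes on the array, albumin and the fibrinogen chain Fga among them, 0 passed the filter on dim signal, and none exceeded an intensity of 77.9 on any array.

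Saa3 rose in both sorts under G-CSF and Hp rose in the endothelial sort. A call means an adjusted p under 0.05 in limma, adjusted by Benjamini and Hochberg over all 13453 genes. In the osteoblast sort 1 of the 8 genes, Saa3, was called higher under G-CSF, where 0.186% of all genes tested were, and 0 were called lower, where 0.0446% were. At an unadjusted p under 0.05 the osteoblast counts were 4 higher and 0 lower. In either direction 1191 of all 13453 genes were under that p in the osteoblast sort and 1765 in the endothelial sort. In the endothelial sort 2 genes, Saa3 and Hp, were called higher, where 0.453% of all genes were, and 0 lower, where 1.14% were, with 2 and 1 at an unadjusted p under 0.05. Over all genes 61 were higher and 154 lower in the endothelial sort, and 83 and 56 when arrays were centred on their medians. The G-CSF and untreated values did not overlap for 1 gene of 8 in the osteoblast sort, higher under G-CSF, against 3.61% of all genes, and for 0 lower genes, against 5.69%. In the endothelial sort they did not overlap for 4 higher genes (Saa3, Hp, Lcn2 and Lrg1), against 4.65% of all genes, and for 1 lower gene, Cp, against 5.62%. The difference between the G-CSF changes of the sorts was called for 0 of the 8 genes and for 0% of all genes, with 0 of the 8 and 622 of 13453 genes at an unadjusted p under 0.05.

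**Figure D1:**
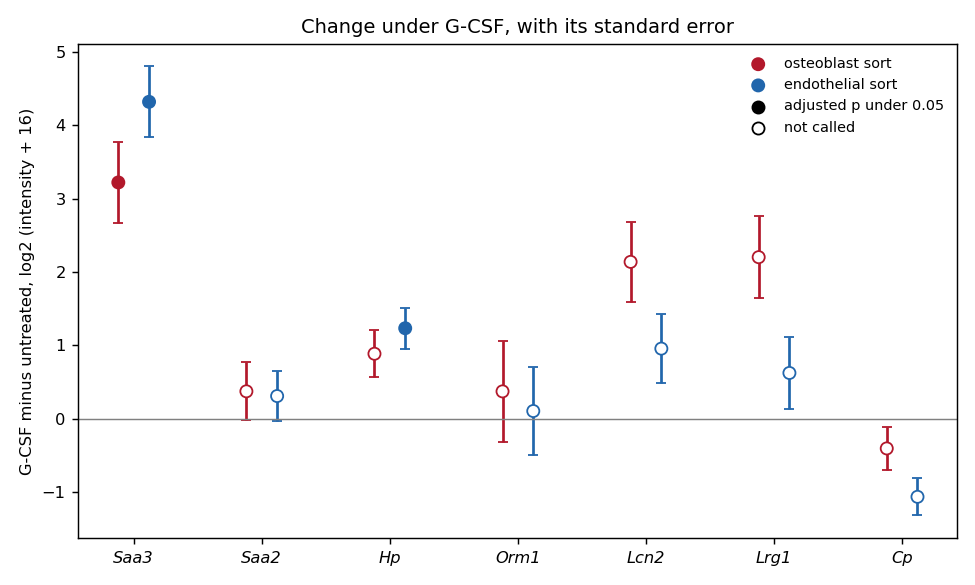
Change under G-CSF of the 7 genes tested, as the difference in log2 of intensity plus 16 with its standard error, red for the osteoblast sort and blue for the endothelial sort; filled points have an adjusted p under 0.05. Saa3 lies highest in both sorts, and Cp is the gene below 0 in both.

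Saa3 encodes an amyloid of high-density lipoprotein that in mouse is made mainly outside the liver, by macrophages and fat cells. On probe set 1450826_a_at its intensity was 5027, 3916 and 1957 on the osteoblast G-CSF arrays, against 522, 305 and 265 on the untreated osteoblast arrays. In the endothelial sort it was 6243, 3524, 4062 and 4981 under G-CSF, against 763, 141, 194 and 95.1 untreated. Every G-CSF array lay above every untreated array, across both sorts. On the log2 scale the means were 11.73 ± 0.70 under G-CSF and 8.51 ± 0.50 untreated in osteoblasts (SD, n = 3 each). In endothelial cells they were 12.17 ± 0.36 under G-CSF and 7.85 ± 1.23 untreated (SD, n = 4 each). Saa3 rose 9.31-fold in the osteoblast sort, a log2 change of 3.22 ± 0.56 (SE, limma adjusted p = 0.0284), and 19.9-fold in the endothelial sort, a log2 change of 4.32 ± 0.48 (limma adjusted p = 0.00104). The difference between these changes was -1.10 ± 0.74, with an interval from -2.67 to 0.47 (limma adjusted p = 1).

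The endothelial rise of Saa3 was called with each of the 14 arrays left out, at an adjusted p of at most 0.00571 in limma. The osteoblast rise kept its size, with a log2 change of 2.93 to 3.61, but lost its call without untreated osteoblast replicate 1 (limma adjusted p = 0.0609) or 3 (0.169), without osteoblast G-CSF replicate 1 (0.162) or 2 (0.113), and without untreated endothelial replicate 3 (0.0514). Osteoblast replicates 2 and 3 were deposited with 7 decimals and all other arrays with 1. With this as a term in the model the osteoblast change of Saa3 was 3.22 (limma adjusted p = 0.0345), and over osteoblast replicates 2 and 3 alone, fitted with all endothelial arrays, it was 3.21 (limma adjusted p = 0.194). Untreated Saa3 was highest in untreated endothelial replicate 1, the array high in muscle genes. Without that array untreated Saa3 was called higher in the osteoblast than in the endothelial sort, by 1.24 on the log2 scale (limma adjusted p = 0.0248), whereas with it the difference was 0.66 ± 0.52 (limma adjusted p = 0.394). Under G-CSF the osteoblast level differed from the endothelial level by -0.44 ± 0.52 (limma adjusted p = 0.571). In the order of levels, endothelial G-CSF came above osteoblast G-CSF, then untreated osteoblast and untreated endothelial, and the first pair and the last pair did not differ beyond their spread.

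**Figure D2:**
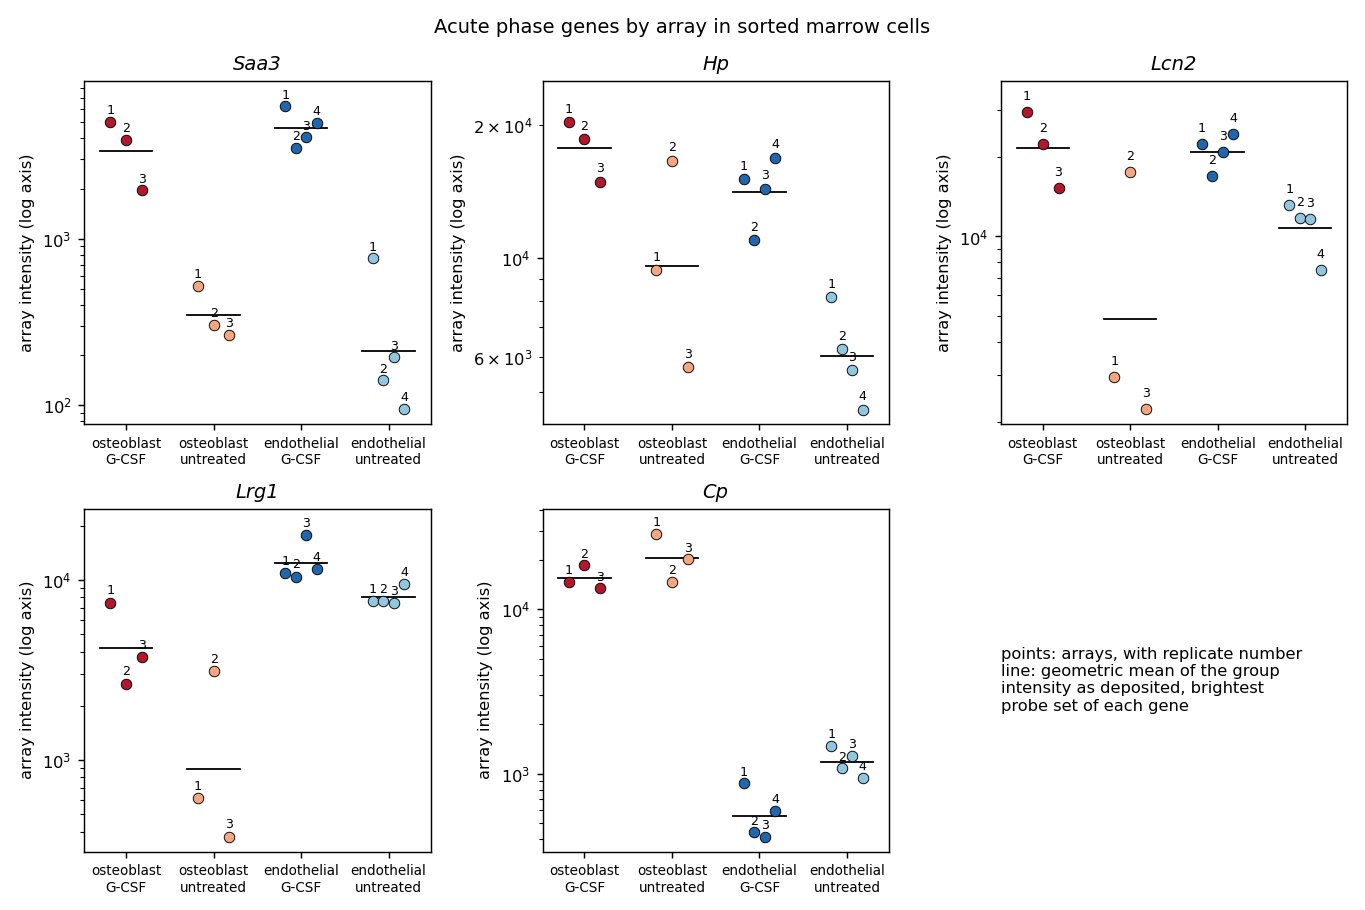
Intensity of the 5 bright genes on each array, on log axes, with the replicate number beside each point and the geometric mean of each group as a line. The Saa3 points of G-CSF lie above all untreated points, untreated osteoblast replicate 2 lies with the G-CSF arrays for Hp, Lcn2 and Lrg1, and Cp separates the sorts.

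Saa1 and Saa2, the amyloids that mouse liver makes in large amounts in the acute phase, stayed dim. Saa1's probe set 1450788_at read 8.2, 11.7 and 76.0 on osteoblast G-CSF arrays and 1.4, 19.0 and 5.33 on untreated osteoblast arrays. In the endothelial sort it read 17.5 to 35.8 under G-CSF and 3.9 to 22.1 untreated. Its mean ranked at percentile 14.5 of all probe sets, below the filter, so these values set no level. The other Saa1 probe set, 1419075_s_at, was designed on an accession that RefSeq now gives to Saa2, and ranked at percentile 27.2. Saa2 passed the filter at percentile 38.2. It read 82.8, 42.6 and 95.7 under G-CSF and 39.2, 34.5 and 90.7 untreated in osteoblasts, and 32.2 to 71.6 under G-CSF and 18.7 to 50.6 untreated in endothelial cells. The groups overlapped in each sort, and the log2 change of Saa2 was 0.37 ± 0.39 in osteoblasts and 0.31 ± 0.34 in endothelial cells (limma adjusted p = 0.876 and 0.819). The upper bound of the endothelial interval for Saa2 was 1.04, while the lower bound for Saa3 was 3.29. The high sequence identity of Saa1 and Saa2 means that their probe sets may share signal.

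Hp encodes haptoglobin, which captures free hemoglobin so that CD163 on macrophages can clear it, and which neutrophils also store in granules. On probe set 1448881_at it read 20268, 18580 and 14905 on the osteoblast G-CSF arrays, against 9401, 16608 and 5685 untreated. In the endothelial sort it read 15085, 10980, 14347 and 16874 under G-CSF, against 8177, 6247, 5598 and 4560 untreated. The endothelial groups did not overlap, while untreated osteoblast replicate 2 lay above osteoblast G-CSF replicate 3. Hp rose 2.35-fold in the endothelial sort, a log2 change of 1.23 ± 0.28 (limma adjusted p = 0.0399). In the osteoblast sort the log2 change was 0.89 ± 0.32 (limma adjusted p = 0.376). Without untreated osteoblast replicate 2 it was 1.28 (limma adjusted p = 0.016), and without untreated osteoblast replicate 3 it was 0.51 (limma adjusted p = 0.668).

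The endothelial call of Hp was a near one. It was lost in 9 of the 14 fits that left out an array, namely without osteoblast G-CSF replicate 2 (limma adjusted p = 0.0561) or 3 (0.0546), without untreated endothelial replicate 1 (0.0814), 3 (0.133) or 4 (0.129), and without endothelial G-CSF replicate 1 (0.0729), 2 (0.0688), 3 (0.0888) or 4 (0.0846). Its log2 change was positive throughout and at most 1.38. On the log2 scale Hp averaged 14.12 ± 0.23 under G-CSF and 13.23 ± 0.77 untreated in osteoblasts, and 13.79 ± 0.26 under G-CSF and 12.56 ± 0.35 untreated in endothelial cells (SD). The osteoblast minus endothelial difference was 0.33 ± 0.30 under G-CSF (limma adjusted p = 0.449; -0.06 with arrays centred on their medians) and 0.68 ± 0.30 untreated (limma adjusted p = 0.115). Without untreated osteoblast replicate 3 the untreated difference of Hp was called, at an adjusted p of 0.0151 in limma. The order of Hp levels was osteoblast G-CSF, endothelial G-CSF, untreated osteoblast and untreated endothelial. The first pair and the last pair were not called as different, and the ranges of the middle pair overlapped.

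Orm1 encodes orosomucoid, an abundant plasma glycoprotein that binds drugs and lipids. It was dim on probe set 1451054_at, at percentile 33.4, just inside the filter. Its intensity was 72.3, 60.6 and 25.95 under G-CSF and 27.4, 152.0 and 1.92 untreated in osteoblasts. In endothelial cells it ranged from 24.7 to 62.6 under G-CSF and from 3.8 to 64.5 untreated. The groups overlapped in each sort. The log2 change was 0.37 ± 0.69 in osteoblasts, with an interval from -1.09 to 1.84, and 0.11 ± 0.59 in endothelial cells (limma adjusted p = 0.94 and 0.977). Over all 5 comparisons the adjusted p of Orm1 ran from 0.813 to 1 and that of Saa2 from 0.465 to 1.

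Lcn2 encodes lipocalin 2, which withholds iron from bacteria by binding their siderophores and is a protein of neutrophil secondary granules. On probe set 1427747_a_at it read 29449, 22225 and 15227 on osteoblast G-CSF arrays, against 2961, 17506 and 2235 untreated. In endothelial cells it read 22246, 16948, 20726 and 24365 under G-CSF, against 13194, 11695, 11606 and 7495 untreated. The endothelial groups did not overlap, and in the osteoblast sort untreated replicate 2 lay among the G-CSF arrays. The log2 change of Lcn2 was 2.14 ± 0.54 in osteoblasts, 4.40-fold (limma adjusted p = 0.181), and 0.96 ± 0.47 in endothelial cells, 1.94-fold (limma adjusted p = 0.415). Neither was called.

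Both results depended on untreated osteoblast replicate 2, and the osteoblast change of Lcn2 also on replicate 3. Without untreated osteoblast replicate 3 that change was 1.58 (limma adjusted p = 0.426). Without untreated osteoblast replicate 2 the osteoblast change of Lcn2 was 3.06, or 8.32-fold (limma adjusted p = 3.97e-05). The endothelial change, its size the same, then had a limma adjusted p of 0.028, since the spread is shared by all groups. The difference between the sorts' changes was 1.18 ± 0.72 with all arrays (limma adjusted p = 1) and 2.10 without that array (limma adjusted p = 0.0365). Among untreated arrays Lcn2 was lower in osteoblasts than in endothelial cells by 1.14 ± 0.51 on the log2 scale (difference -1.14, limma adjusted p = 0.118), and by 2.06 without that array (difference -2.06, limma adjusted p = 5.43e-05). Under G-CSF the 2 sorts differed by 0.04 ± 0.51 (limma adjusted p = 0.961), and this small difference turned to -0.34 when arrays were centred on their medians. Lcn2 averaged 14.39 ± 0.48 under G-CSF and 12.26 ± 1.61 untreated in osteoblasts, and 14.35 ± 0.22 under G-CSF and 13.40 ± 0.36 untreated in endothelial cells (log2, SD). The order was osteoblast G-CSF, endothelial G-CSF, untreated endothelial and untreated osteoblast, and no neighbouring pair was called as different.

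Lrg1 encodes a secreted leucine-rich glycoprotein that binds endoglin and modifies TGF-beta signalling in endothelium, and that neutrophils also carry. On probe set 1417290_at it read 7490, 2656 and 3725 on osteoblast G-CSF arrays, against 614.5, 3111 and 375 untreated. In endothelial cells it read 10929, 10438, 17810 and 11433 under G-CSF, against 7619, 7618, 7448 and 9502 untreated. Endothelial arrays were higher than osteoblast arrays within each treatment, without overlap. Under G-CSF Lrg1 was 2.93-fold lower in osteoblasts, a log2 difference of -1.55 ± 0.52 (limma adjusted p = 0.0343). Among untreated arrays it was 8.75-fold lower in osteoblasts, a log2 difference of -3.13 ± 0.52 (limma adjusted p = 0.000426).

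The G-CSF difference of Lrg1 between the sorts lost its call without osteoblast G-CSF replicate 2 (limma adjusted p = 0.145) or 3 (0.0994), or without endothelial G-CSF replicate 1 (0.0517), 2 (0.051), 3 (0.0831) or 4 (0.0553). It also lost its call with the replicate number as a block across the sorts (limma adjusted p = 0.0644), with quantile normalisation (0.0581) and with the decimals of the file as a term (0.137). The untreated difference stayed between -4.01 and -2.51 with any array left out. Within the osteoblast sort the change under G-CSF was 2.20 ± 0.56, or 4.60-fold (limma adjusted p = 0.181), and without untreated osteoblast replicate 2 it was 3.09, or 8.49-fold (limma adjusted p = 0.000206). Without untreated osteoblast replicate 3 it was 1.59 (limma adjusted p = 0.426). Within the endothelial sort it was 0.62 ± 0.49, or 1.54-fold (limma adjusted p = 0.702), although the groups did not overlap. The difference between these changes was 1.58 ± 0.74 (limma adjusted p = 1), and 2.46 without untreated osteoblast replicate 2 (limma adjusted p = 0.0498). Lrg1 averaged 12.04 ± 0.76 under G-CSF and 9.84 ± 1.57 untreated in osteoblasts, and 13.59 ± 0.36 under G-CSF and 12.97 ± 0.17 untreated in endothelial cells (log2, SD). The order was endothelial G-CSF, untreated endothelial, osteoblast G-CSF and untreated osteoblast. The pairs within a sort were not called as different, and osteoblast G-CSF replicate 1 reached the range of the untreated endothelial arrays.

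**Figure D3:**
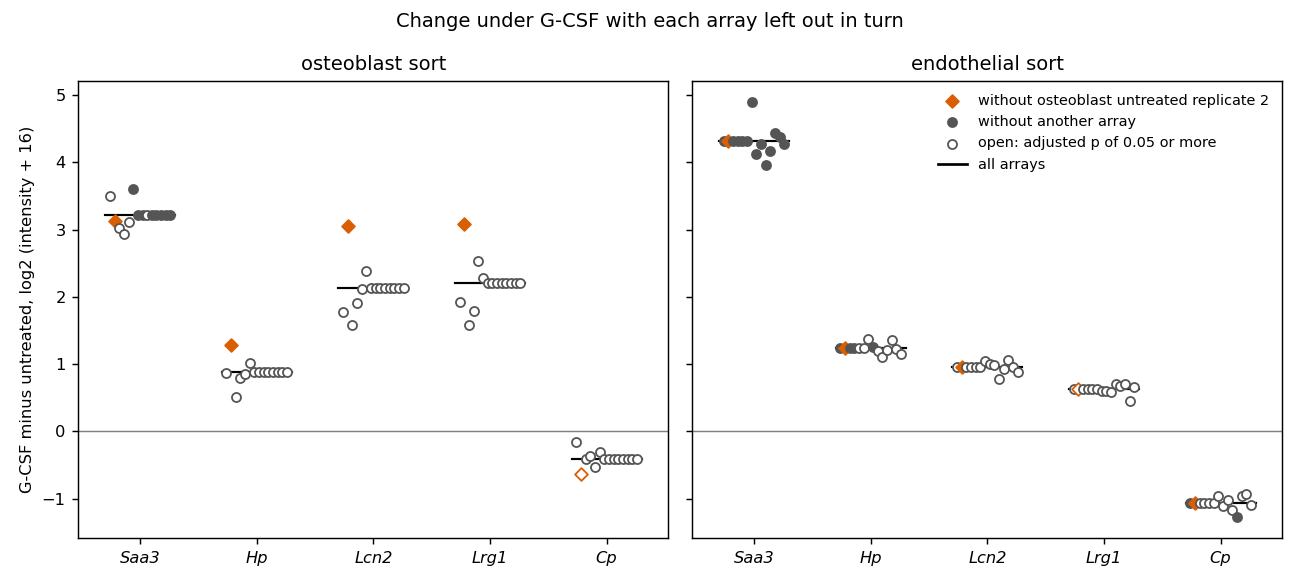
G-CSF minus untreated difference in log2 of intensity plus 16 for 5 genes with each of the 14 arrays left out in turn, beside the value from all arrays (black line); open symbols are not called. Leaving out untreated osteoblast replicate 2 (orange diamonds) brings the osteoblast changes of Lcn2 and Lrg1 to 3.06 and 3.09, near that of Saa3.

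Cp encodes ceruloplasmin, the copper-carrying ferroxidase that loads iron onto transferrin. It was far higher in the osteoblast sort. Its brightest probe set, 1417494_a_at, read 14689, 18435 and 13429 on osteoblast G-CSF arrays and 28625, 14654 and 20096 on untreated osteoblast arrays. In endothelial cells it read 874, 443, 415 and 595 under G-CSF, against 1478, 1079, 1288 and 945 untreated. No osteoblast array came near the endothelial range. Cp was 26.9-fold higher in osteoblasts than in endothelial cells under G-CSF, a log2 difference of 4.75 ± 0.28 (limma adjusted p = 3.28e-08). Among untreated arrays it was 17.0-fold higher in osteoblasts, a log2 difference of 4.09 ± 0.28 (limma adjusted p = 1.03e-07).

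Cp had 8 probe sets, and all 8 put it higher in osteoblasts without overlap. On the 7 brighter ones the difference was 14.3-fold to 26.9-fold under G-CSF and 12.8-fold to 20.0-fold among untreated arrays. The dimmest, 1441326_at, read no more than 32.7 on endothelial G-CSF arrays and 35.8 on untreated ones, too low to set a fold. The change of Cp under G-CSF was below 0 in both sorts. In the endothelial sort the log2 change was -1.06 ± 0.25, and the groups did not overlap (limma adjusted p = 0.0512). This value sat at the threshold: with the replicate number as a block the adjusted p in limma was 0.0238, so that Cp was then called lower. It was also called without untreated osteoblast replicate 1 (limma adjusted p = 0.0418), untreated osteoblast replicate 2 (0.0216) or endothelial G-CSF replicate 1 (0.0285). All 8 probe sets gave a negative endothelial change, from -0.14 to -1.06, and none was called when probe sets were tested singly. Markers of the osteoblast sort, where Cp is high, also fell in median under G-CSF in the endothelial sort. Untreated endothelial replicates 1 to 4 summed to 150259, 83014, 91418 and 126602 over 10 osteoblast genes, with Cp at 1478, 1079, 1288 and 945. Endothelial G-CSF replicates 1 to 4 summed to 90985, 20603, 57589 and 93566, with Cp at 874, 443, 415 and 595. The summed intensity of the 10 osteoblast genes ranged from 20603 to 93566 on endothelial G-CSF arrays, against 83014 to 150259 on untreated endothelial arrays. Their median log2 change in the endothelial sort was -1.48, and 1 of them, Alpl, was called lower (limma adjusted p = 0.0321, and 0.114 without untreated endothelial replicate 1), with 7 lower at an unadjusted p under 0.05. The 15 adipogenic stroma genes summed to between 39543 and 64984 under G-CSF and to between 54335 and 66638 untreated. Their median change was -0.48, and 4 of them (Adipoq, Pdgfra, Il7 and Grem1) were called lower, where 1.14% of all genes were. None of these 25 genes was at 0 on any array, and their part in the Cp value was not tested. In the osteoblast sort the change of Cp was -0.40 ± 0.29 (limma adjusted p = 0.78), and 7 of 8 probe sets were negative. Cp averaged 13.91 ± 0.24 under G-CSF and 14.31 ± 0.48 untreated in osteoblasts (log2, SD, n = 3 each), and 9.16 ± 0.48 under G-CSF and 10.22 ± 0.28 untreated in endothelial cells (n = 4 each). In order of level both osteoblast groups came above both endothelial groups, untreated above G-CSF within each sort, and no pair within a sort was called as different.

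**Figure D4:**
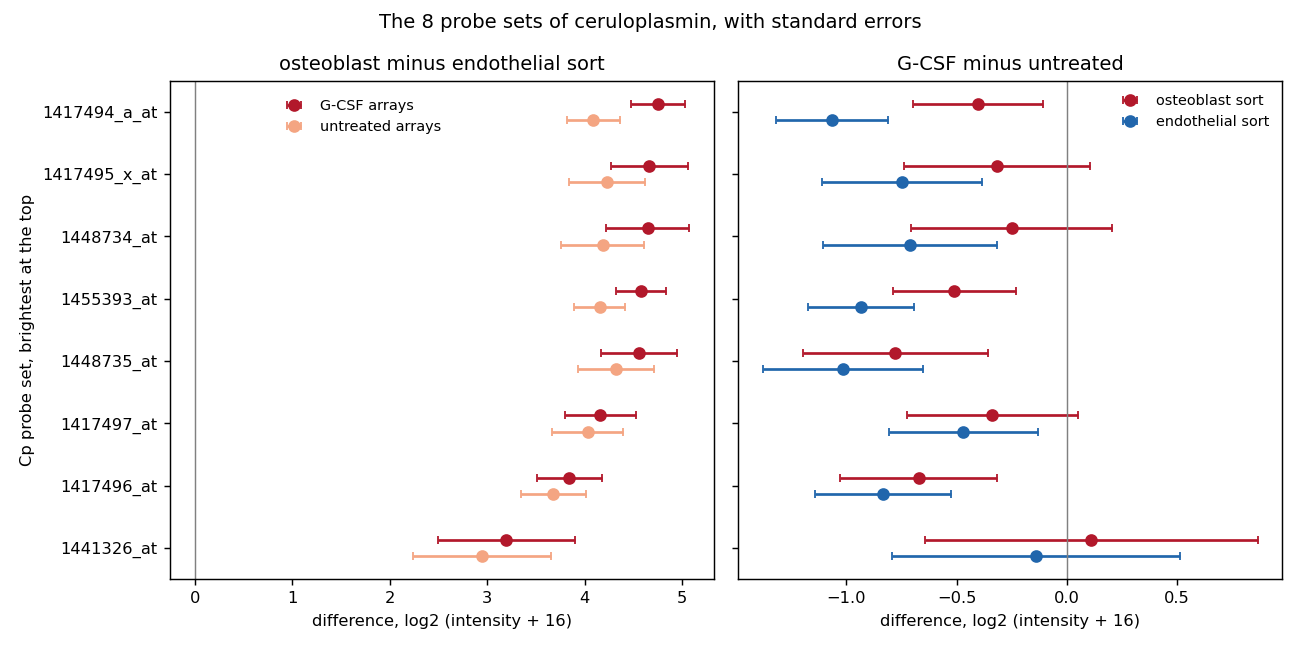
Differences in log2 of intensity plus 16 for the 8 Cp probe sets with standard errors: between the sorts within each treatment (left) and under G-CSF within each sort (right). All 8 are above 0 on the left, and on the right all 8 endothelial points and 7 of 8 osteoblast points are below 0.

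Between the sorts 1 gene of the 8, Cp, was called higher in osteoblasts and 1, Lrg1, lower. Under G-CSF 17.5% of all genes were called higher and 14.4% lower, and among untreated arrays 13.6% and 12.8%. Values of the sorts did not overlap for Cp and Lrg1 under both treatments, against 21.4% (higher) and 18.0% (lower) of all genes under G-CSF and 16.7% and 15.9% among untreated arrays. These counts are near the background, so they do not set the 8 genes apart. Centring the arrays on their medians moved every osteoblast minus endothelial difference down by 0.39 under G-CSF and by 0.23 among untreated arrays, which left the calls of Cp and Lrg1 in place.

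Lcn2, Lrg1, Hp and Saa3 are also known from neutrophils or macrophages, and neutrophil genes moved with them. Of 29 neutrophil genes from 3 lists (primary granule, secondary granule, tertiary granule and mature), 25 were tested. Their summed intensity ranged from 277356 to 373978 on osteoblast G-CSF arrays and from 73012 to 381778 on untreated osteoblast arrays. It ranged from 225588 to 342099 on endothelial G-CSF arrays and from 150149 to 245039 on untreated endothelial arrays. None of the 25 was at 0 on any array. Their median log2 change was 1.72 in osteoblasts, where 0 were called (20 higher and 0 lower at an unadjusted p under 0.05), and 1.01 in endothelial cells, where Anxa1 was called. The medians over all genes were -0.04 and -0.05.

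The change of Saa3 was larger than that of any of the 25 neutrophil genes in either sort: the highest was 2.79 (Ctsg) in osteoblasts and 1.99 (Ms4a3) in endothelial cells. The Lcn2 changes of 2.14 and 0.96 lay within the range of these genes, 0.72 to 2.79 in osteoblasts and -0.05 to 1.99 in endothelial cells, as did those of Hp and Lrg1. With the mean of the 25 genes on each array as a covariate, the endothelial change of Saa3 was 4.09 (limma adjusted p = 0.00611) and its osteoblast change 2.84 (limma adjusted p = 0.0788). The endothelial change of Hp was then 0.73 (limma adjusted p = 0.0853) and its osteoblast change 0.037 (limma adjusted p = 0.962). The endothelial change of Lcn2 was then -0.06 and that of Lrg1 -0.26. The osteoblast changes of Lcn2 and Lrg1 were then 0.42 and 0.70 (limma adjusted p = 0.313 and 0.451). With the same covariate untreated Hp was called higher in osteoblasts, with a log2 difference of 1.07 (limma adjusted p = 0.000848, against 0.115 without the covariate). Untreated Lrg1 was still lower in osteoblasts, with a log2 difference of -2.44 (limma adjusted p = 8.94e-05). The covariate itself was higher under G-CSF, at 12.18 against 10.44 untreated in osteoblasts and 12.26 against 11.24 in endothelial cells. This fit therefore cannot separate neutrophil RNA from a response to G-CSF, and the part of neutrophil RNA in each change was not tested.

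**Figure D5:**
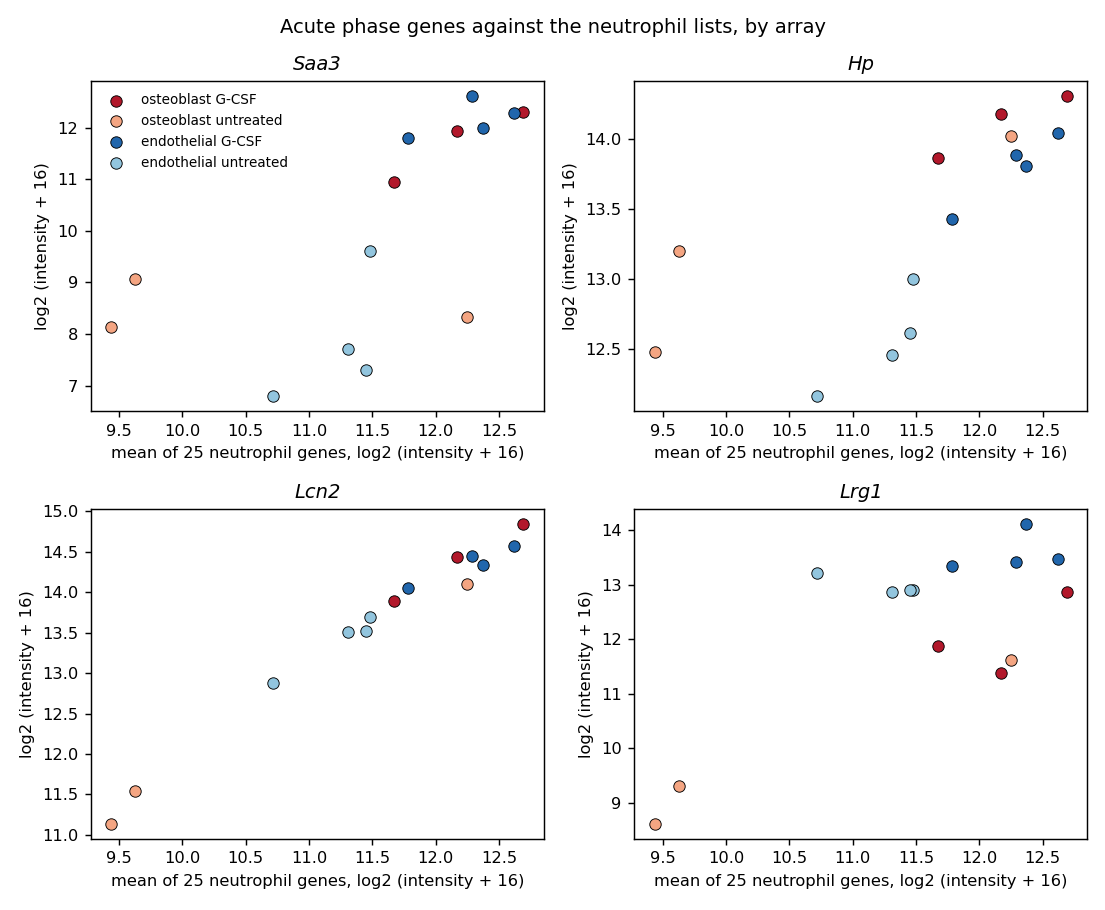
Log2 of intensity plus 16 of Saa3, Hp, Lcn2 and Lrg1 on each array against the mean of the same measure over 25 neutrophil genes. Untreated osteoblast replicate 2 lies at 12.25 on the horizontal axis with the G-CSF arrays; its Lcn2 is high with them, while its Saa3 stays with the untreated arrays.

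The array with the most neutrophil signal among untreated osteoblasts divides the members. There Lcn2 read 17506, Hp 16608 and Lrg1 3111, each the highest of its untreated osteoblast group. Saa3 read 305 on that array, between 522 and 265 on the others. Erythroid and B lineage genes were high on this array too, so it differs in more than neutrophil signal.

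Further acute phase genes were not called under G-CSF. Of 40 further positive acute phase genes 20 were tested, and 0 were called in either direction under G-CSF in either sort. At an unadjusted p under 0.05, 8 were higher and 1 lower in osteoblasts and 3 higher and 1 lower in endothelial cells. Their median log2 change was 0.69 in osteoblasts and 0.30 in endothelial cells. S100a8, S100a9 and Ngp among the 20 were also counted in the neutrophil lists. The part of neutrophil RNA in these changes was not tested. The largest change in osteoblasts was that of Chil1, a chitinase-like lectin, at 2.73 ± 0.64 (limma adjusted p = 0.114). Chil1 read 1220 on untreated osteoblast replicate 2, the array high in neutrophil genes, against 410 and 176 on the other untreated osteoblast arrays. The largest change in endothelial cells was that of A2m, the protease inhibitor alpha-2-macroglobulin, at -2.45 ± 0.63 (limma adjusted p = 0.0674). Between the sorts 5 of the 20 were called higher in osteoblasts under G-CSF (A2m, Serpina3n, Mt2, Mt1 and Il1rn) and 3 lower (Serpina1b, Cd14 and Crp), where 17.5% and 14.4% of all genes were. Among untreated arrays 2 were higher (Serpina3n and Mt1) and 1 lower (Crp), where 13.6% and 12.8% of all genes were. Serpina3n, a protease inhibitor, read 294, 572 and 299 on osteoblast G-CSF arrays, against 107, 14.9, 28.1 and 66.7 on endothelial G-CSF arrays (limma adjusted p = 0.00166). Among untreated arrays Serpina3n read 301, 220 and 96.9 in osteoblasts and 13.7, 6.1, 61.0 and 3.4 in endothelial cells (limma adjusted p = 0.00196), and the endothelial values are too low to set a fold. Of 10 genes known to fall in the acute phase 2 were tested, Igf1 and Rbp4, and 0 were called under G-CSF in either sort.

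Among the cytokines that induce the acute phase and their receptors, a decoy receptor rose. Of 22 tested (31 listed), 1 was called higher under G-CSF in each sort and 0 lower. That gene was Il1r2, the decoy receptor that binds interleukin-1 without signalling. Over all genes 0.186% were called higher in the osteoblast sort and 0.453% in the endothelial sort. Il1r2 read 2504, 1127 and 954 on osteoblast G-CSF arrays, against 87.1, 544 and 119 untreated. In endothelial cells it read 3872, 2187, 2787 and 4151 under G-CSF, against 610, 722, 482 and 372 untreated. The groups did not overlap in either sort. The value of 544 was that of untreated osteoblast replicate 2, the array high in neutrophil and other blood cell genes. The part of neutrophil RNA in the change of Il1r2 was not tested. Il1r2 rose by 2.83 ± 0.52 in osteoblasts (limma adjusted p = 0.0418, and 0.0672 with the replicate block) and by 2.53 ± 0.45 in endothelial cells (limma adjusted p = 0.0182) on the log2 scale. Leaving out untreated osteoblast replicate 3 took its osteoblast adjusted p to 0.191, and leaving out untreated endothelial replicate 3 its endothelial adjusted p to 0.0702. Il6 changed by 0.76 ± 0.56 in osteoblasts and 1.08 ± 0.49 in endothelial cells, and Il1b by 1.90 ± 0.79 and 1.72 ± 0.68 (limma adjusted p from 0.265 to 0.788). Csf3r, the G-CSF receptor, changed by 1.87 ± 0.62 in osteoblasts and 1.66 ± 0.54 in endothelial cells (limma adjusted p = 0.315 and 0.142).

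Of 34 transducers and transcription factors of the response 29 were tested, and 0 were called under G-CSF in either sort. At an unadjusted p under 0.05, 2 were higher and 1 lower in osteoblasts and 5 higher and 1 lower in endothelial cells. Their log2 changes ran from -0.905 (Cebpa) to 1.16 (Bcl3) in osteoblasts and from -0.582 (Nfkb2) to 0.882 (Batf) in endothelial cells. Stat3, which carries the interleukin-6 signal, changed by 0.57 ± 0.17 in endothelial cells without overlap (limma adjusted p = 0.108), and was called with the replicate block (0.0238). Cebpb, a C/EBP factor of interleukin-6 signalling, changed by 0.61 ± 0.19 there (limma adjusted p = 0.118, and 0.0143 with the replicate block). In osteoblasts Stat3 changed by 0.36 ± 0.19 and Cebpb by 0.66 ± 0.21 (limma adjusted p = 0.641 and 0.312). Socs3, the feedback inhibitor of STAT3, changed by 0.67 ± 0.41 in osteoblasts and 0.07 ± 0.36 in endothelial cells (limma adjusted p = 0.709 and 0.976).

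Among receptors and partners of the 8 proteins, none was called under G-CSF. Of 25 listed 19 were tested. Between the sorts 4 were called higher and 6 lower in osteoblasts under G-CSF, where 17.5% and 14.4% of all genes were, and 3 and 6 among untreated arrays, where 13.6% and 12.8% were. Cd36, a scavenger receptor that binds serum amyloid, had the largest difference, at -6.32 ± 0.32 on the log2 scale under G-CSF and -5.66 ± 0.32 among untreated arrays (limma adjusted p = 8.19e-09 and 2.53e-08). Under G-CSF 0 were called in either sort, with 2 higher and 1 lower in osteoblasts and 2 higher and 2 lower in endothelial cells at an unadjusted p under 0.05. Their log2 changes ran from -0.759 (Slc22a17) to 2.57 (Fpr2) in osteoblasts and from -0.964 (Lrp1) to 1.58 (Fpr2) in endothelial cells. Fpr2 read 3196 on untreated osteoblast replicate 2, against 503 and 330 on the other untreated osteoblast arrays. Eng, the endoglin that binds the Lrg1 protein, was lower in osteoblasts by 3.06 ± 0.28 on the log2 scale under G-CSF and by 3.05 ± 0.28 among untreated arrays (differences -3.06 and -3.05, limma adjusted p = 1.27e-06 and 1.82e-06). Slc22a17, a receptor for the Lcn2 protein, was 2.26-fold higher in osteoblasts under G-CSF and 2.45-fold higher among untreated arrays (limma adjusted p = 0.00309 and 0.00198). Cd163, the haptoglobin and hemoglobin receptor, was 2.63-fold higher in osteoblasts under G-CSF (limma adjusted p = 0.0425, and up to 0.176 with an array left out, osteoblast G-CSF replicate 2). Among 15 tested genes of iron handling 0 were called under G-CSF in either sort, with 0 higher in each and 3 lower in osteoblasts and 4 lower in endothelial cells at an unadjusted p under 0.05. Their log2 changes ran from -1.34 (Blvrb) to 0.815 (Steap3) in osteoblasts and from -1.65 (Cybrd1) to 0.298 (Slc40a1) in endothelial cells. Slc40a1, ferroportin, the iron exporter that works with ceruloplasmin, changed by 0.12 ± 0.37 in osteoblasts and 0.30 ± 0.32 in endothelial cells (limma adjusted p = 0.965 and 0.812).

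Genes with the most similar profile over the 14 arrays were found by Pearson correlation of log2 values, as a description. The arrays fall into 4 groups, so a shared group difference raises these values. Saa3 was closest to Ifitm1 (r = 0.978), Stfa3 (0.929) and Cd244a (0.928). Lcn2 was closest to Trem3 (r = 0.983), Ifitm6 (0.981) and Sorl1 (0.977). Hp was closest to Emb (r = 0.935), Mpzl3 (0.931) and Tlr6 (0.909), and Lrg1 to Rhbdf2 (0.961), Pik3cb (0.96) and Pxn (0.95). Cp was closest to Abca9 (r = 0.992), Ogn (0.991) and C1ra (0.988). No gene appears in the nearest 3 of more than 1 member. Among the members themselves the closest pairs were Saa3 and Hp (r = 0.834) and Lcn2 and Lrg1 (r = 0.781), and Lrg1 ran opposite to Cp (r = -0.817).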

How the data were processed

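The authors deposited linear array intensities, with 1 value for each probe set. Affymetrix Expression Console 1.1 produced them, per the submitters' processing notes. The summarisation algorithm is not given in the sources used here. Trimmed means of 500 on all 14 arrays show that the authors' intensities had been scaled, so they were not normalised again. The median log2 value ran from 6.57 to 7.13, correlation between arrays from 0.740 to 0.973, the 3'/5' ratio of actin probe sets, which rises as RNA degrades, from 2.62 to 11.03 and that of GAPDH from 5.88 to 20.92. The number of arrays limits the precision. Columns of other samples numbered 0.

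Intensities were turned into log2 after adding 16, a scale on which the change of dim genes is understated. Left out were 64 control probe sets, 932 with several symbols and 9160 without one. Probe sets in the lowest fraction of 0.333 by mean were dropped, and the brightest remaining probe set stood for its gene. A model of 4 group means was fitted in limma 3.58.1 (R 4.3.3) with a trend in the prior, 2-sided, with p-values adjusted over 13453 genes. The fit was tested on simulated data. The members and the 17 gene lists (270 genes, 207 tested) were chosen with earlier results of these data known. Named were all members. Of the lists, some called genes, some of the largest changes and some key genes of the design were named. Where a list's further genes are named, they illustrate the count beside them.

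Titles give the replicate numbers, with no word on what they stand for. Deviations from the group mean correlated between same-numbered G-CSF and untreated arrays, by 0.223, 0.288 and 0.315 for the osteoblast sort. For the endothelial sort the correlations were 0.239, 0.377, 0.281 and 0.102, so numbers were used as a block within each sort as an alternative. Differently numbered arrays correlated by -0.276 to 0.0145 in the osteoblast sort and by -0.278 to 0.178 in the endothelial sort. The 0.178 was that of endothelial G-CSF replicate 4 with untreated replicate 1, above the 0.102 of replicate 4 with its own number. Between the sorts arrays of 1 number correlated by -0.01 to 0.27.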

Additional observations from a re-analysis of the deposited data

Results flagged for a closer look

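Among 14 groups of 4 endothelial arrays tested for a single distant value, 3 had a gap larger than Dixon's critical value (chance marks about 1 group in 20). Gaps and ranges were taken on the log2 scale used for the tests, with the pseudocount added, whereas the values quoted below are intensities. The gaps therefore cannot be recomputed from the intensities directly, and the count of groups holds for the log2 scale only. Lrg1 on endothelial G-CSF replicate 3 was 17810, far above the other G-CSF arrays, with a gap of 0.83 of the group's range. Lrg1 on untreated endothelial replicate 4 was 9502, above the other untreated arrays at 7448 to 7619, with a gap of 0.907 of the range. Orm1 on untreated endothelial replicate 4 was 3.8, below the others of its group, with a gap of 0.854 of the range.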

How the results depend on the processing

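Each result was recomputed with other pseudocounts, scalings, filters, probe set rules, blocks, weights and priors, and with each array left out. Over 25 results of the 5 bright genes under 34 settings, 764 values kept direction and call, 30 gained a call, 33 lost it and 13 reversed (a block within each sort gives no difference between sorts); the cause was not tested. Saa3's endothelial rise was called in all. With each array left out, the count of the 8 genes called higher ran from 0 to 4 in osteoblasts and from 1 to 3 in endothelial cells under G-CSF, the count called lower in endothelial cells from 0 to 1, and the count for the difference of changes from 0 to 2. Between the sorts, 1 to 2 were higher and 1 to 2 lower among untreated arrays, and 0 to 1 lower under G-CSF. In the osteoblast sort, members called higher under G-CSF numbered 0 with only the arrays compared and at a threshold of 0.01. They also numbered 0 with the neutrophil covariate and over osteoblast replicates 2 and 3 alone (an alternative chosen after seeing the data). They numbered 3 with array weights, and 4 when the untreated arrays that stood apart (osteoblast replicate 2, endothelial replicate 1) were both dropped. In the endothelial sort, members called higher under G-CSF numbered 1 with probe sets singly, without a trend and at 0.01. They also numbered 1 with the neutrophil covariate and with osteoblast replicates 2 and 3 alone. Members called lower there numbered 1 (Cp) with a stricter filter on dim probe sets and with only the arrays compared. That number was also 1 with either replicate block, with array weights and with the decimals of the file as a term. Untreated osteoblast against endothelial arrays gave 2 lower with array weights, 2 higher with the neutrophil covariate, and 2 of each when both of those arrays were dropped. Under G-CSF 0 were lower with quantile normalisation, the block across sorts, the threshold of 0.01 and the decimals term. The G-CSF osteoblast minus endothelial difference reversed for Lcn2 to -0.15 (quantile), -0.34 (centred), -0.00698 (block across sorts), -0.0782 (weights), -0.0900 (decimals) and -0.18 (replicates 2 and 3; -0.18 to 0.29 with an array left out), for Hp to -0.0579 (centred) and for Saa3 to 0.12 (decimals). With the neutrophil covariate the endothelial change was -0.0569 for Lcn2 and -0.26 for Lrg1, and the Hp difference of changes ran from -0.73 to 0.046 with an array left out, above 0 only without untreated osteoblast replicate 2. Over all genes the osteoblast counts, 25 higher and 6 lower, were 426 and 49 without untreated osteoblast replicate 2, 45 and 19 with the replicate block, and 2 and 0 with only the arrays compared. The endothelial counts, 61 and 154, were 13 and 15 without untreated endothelial replicate 4, 139 and 521 with the block, and 344 and 685 with array weights. The replicate block changed no other call among the 8 genes under G-CSF. Dim signal limits Saa1, Saa2 and Orm1.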
